A study of Rattus norvegicus with 6 samples.

Results

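A set of 8 genes of cell division was followed across RNA sequencing libraries of rat tenocytes, the resident cells of tendon. They were chosen by name, each through its rat Ensembl identifier, and all 8 are among the 19133 genes of the deposited table. They are Mki67 (ENSRNOG00000028137), Top2a (ENSRNOG00000053047), Cdk1 (ENSRNOG00000000632), Ccnb1 (ENSRNOG00000058539), Ccna2 (ENSRNOG00000015423), Pcna (ENSRNOG00000021264), Ccnd1 (ENSRNOG00000020918) and Cdkn1a (ENSRNOG00000000521). The tenocytes were grown from Achilles tendons of Sprague–Dawley rats. The control group was kept in complete medium (n = 3 libraries), and the IL−1β group was given the inflammatory cytokine IL−1β (50 ng/mL, n = 3 libraries) and harvested after 24 h. The study's methods describe its data as coming from independent experiments, whereas the number of animals behind the 3 libraries of a group is not given in the sources used here, so the p-values measure the spread between these libraries. The identity of the cells was not checked against tendon markers, because the table lists genes by identifier only and the symbols of the other genes were not used here.

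A dividing cell passes through a growth phase (G1), DNA replication (S phase), a second gap (G2) and mitosis (M phase). Cyclins are the regulatory subunits that switch on cyclin-dependent kinases at each step, and small inhibitor proteins hold these kinases back. D-type cyclins act in G1 and respond to growth signals, cyclin A acts in S and G2, and cyclin B with its kinase drives entry into mitosis. Many genes that peak in G2 and M phase carry a CCAAT box and a cell cycle homology region (letters TTTGAA or a close relative) shortly before their start. The CCAAT box binds the activator NF-Y, and the homology region is a site of repression in resting cells. In tendon, resident cells divide slowly in adult life and can start to divide again after injury or in culture.

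The RefSeq promoter windows (GRCr8, 250 bases before to 50 after the annotated start) were searched for letters known from cell cycle promoters, as a description of the genes and not as a test of their changes. Windows were found for 6 of the 8 genes, all but Ccna2 and Ccnd1. Of these, 4 are shown here, those of Mki67, Top2a and Cdkn1a because these are the genes that rose, and that of Cdk1 because it also held both kinds of letters, a choice made after the search. Capitals mark the CCAAT box and the homology region on either strand. The box reads ATTGG on the opposite strand. The region was searched as TTTGAA, which reads TTCAAA on the opposite strand, and in the form TTCGAA, which is the same on both.
Mki67, chr1:199952544-199952843, minus strand: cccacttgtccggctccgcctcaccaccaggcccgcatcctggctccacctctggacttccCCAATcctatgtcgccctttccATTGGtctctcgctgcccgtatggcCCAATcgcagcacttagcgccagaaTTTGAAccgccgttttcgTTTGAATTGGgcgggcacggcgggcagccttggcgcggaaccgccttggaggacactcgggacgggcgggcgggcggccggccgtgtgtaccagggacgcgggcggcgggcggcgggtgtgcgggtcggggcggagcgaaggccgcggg
Top2a, chr10:84473044-84473343, minus strand: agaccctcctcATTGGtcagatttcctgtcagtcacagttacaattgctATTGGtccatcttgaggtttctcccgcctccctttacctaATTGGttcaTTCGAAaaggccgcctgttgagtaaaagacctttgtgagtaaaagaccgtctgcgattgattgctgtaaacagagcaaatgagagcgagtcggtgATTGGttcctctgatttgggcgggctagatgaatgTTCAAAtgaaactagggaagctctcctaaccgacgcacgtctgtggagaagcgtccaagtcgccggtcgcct
Cdk1, chr20:19265043-19265342, plus strand: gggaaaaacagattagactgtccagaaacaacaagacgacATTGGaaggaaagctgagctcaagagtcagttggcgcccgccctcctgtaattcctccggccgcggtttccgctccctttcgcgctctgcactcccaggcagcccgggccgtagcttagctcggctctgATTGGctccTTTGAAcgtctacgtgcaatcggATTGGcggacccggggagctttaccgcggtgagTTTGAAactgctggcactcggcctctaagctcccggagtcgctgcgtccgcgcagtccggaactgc
Cdkn1a, chr20:7150682-7150981, plus strand: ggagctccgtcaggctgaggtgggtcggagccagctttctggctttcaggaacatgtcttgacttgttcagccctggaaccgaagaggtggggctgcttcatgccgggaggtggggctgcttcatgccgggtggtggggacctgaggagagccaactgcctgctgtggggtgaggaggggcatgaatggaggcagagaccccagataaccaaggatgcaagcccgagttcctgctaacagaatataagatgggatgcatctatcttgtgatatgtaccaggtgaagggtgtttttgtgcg

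The window of Mki67 held CCAAT 4 times and TTTGAA 2 times, the closest TTTGAA starting 99 bases before the annotated start and running into a CCAAT on the opposite strand. The window of Top2a held CCAAT 4 times, TTTGAA 1 time at 22 bases before the start and TTCGAA 1 time at 152 bases before it. The window of Cdk1 held CCAAT 3 times and TTTGAA 2 times, at 72 and 16 bases before the start. The windows of Ccnb1 and Pcna held CCAAT 2 times and 1 time and neither searched form of the homology region. Other close relatives of these letters were not searched, so a homology region in these windows is not excluded. The window of Cdkn1a held none of these letters. Each search covered only the bases around the start used, and letters elsewhere before or in a gene were not searched. The start used lies 112 bases inside the outermost annotated edge of the gene for Cdkn1a, 254 bases inside it for Mki67, 41 bases inside it for Cdk1, and at the edge for Top2a, Ccnb1 and Pcna.

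Across all 33469 windows of the table, 37.5% hold CCAAT, 18.3% hold TTTGAA, 1.69% hold TTCGAA, and 7.95% hold CCAAT together with TTTGAA or TTCGAA. Of the 6 windows here, 3 hold the combination, those of Mki67, Top2a and Cdk1. The GC box letters GGGCGG were found in 5 of the 6 windows (33.1% of all windows), with overlapping matches in Mki67. The E2F letters TTTCCCGC (0.974% of all windows) and TTTGGCGC (0.493%), the NFκB letters GGGACTTCC (0.783%) and 2 longer forms of them, and TATAAA (14.2%) were in none of the 6. All searches covered both strands, and a match is a run of letters, not a measured binding site. A window without a match does not show that the gene lacks the letters near another start.

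Levels are given as the deposited FPKM, in which the authors divided the fragments of a gene by its length and by the library's depth, so that genes can be compared per length. The low values of the table step in whole multiples of 1 read, and reads recovered from these steps numbered between 36506669 and 43098779 per library. Each of the 8 genes had between 1116 and 6162 reads in each library, so counting error alone was between 1.27% and 2.99% of a gene's level in a single library. For the comparison, FPKM values were scaled between libraries with size factors (0.972 to 1.036), log2 was taken after adding 0.1, and limma's two-sided moderated test was fitted over the 12408 genes that reached 0.5 FPKM in 3 or more libraries. All 8 genes passed this filter. P-values were adjusted over all 12408 genes with the Benjamini-Hochberg method.

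The study used IL−1β on tenocytes as a cell model of inflamed tendon, and the comparison asks how its cell division genes stood against untreated cells. All 8 genes stayed within 2-fold of the control group. Transcripts of Cdkn1a, Mki67 and Top2a rose, those of Ccnd1 fell, and Cdk1, Ccnb1, Ccna2 and Pcna did not pass the test. An adjusted p under 0.05 was reached by 4 of the 8 genes, beside 38.4% of all tested genes. By direction, 3 of the 8 were higher, beside 19.3% of all tested genes, and 1 was lower, beside 19.1%. With 8 genes these counts are given as a description and not as a property of the set. The study's pair of thresholds asks for more than a 2-fold change as well. None of the 8 genes passed both in limma or in limma-voom on the recovered reads. In limma, 8.69% of all tested genes passed both. The median absolute log2 fold change was 0.23 over the 8 genes and 0.21 over all tested genes.

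**Figure D1:**
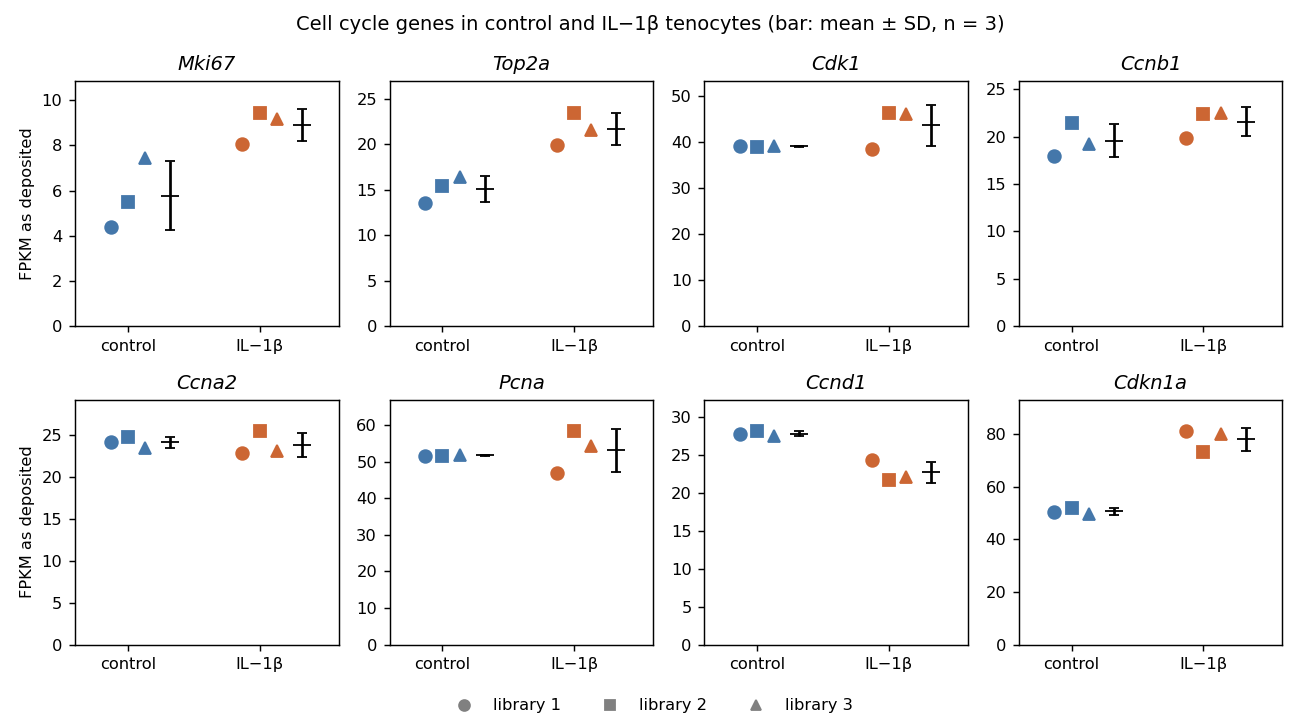
FPKM as deposited (vertical axes from 0) of the 8 genes in each control and IL−1β library, with the mean ± SD of each group (n = 3) beside the points and the library number shown by the symbol. The groups do not overlap for Mki67, Top2a, Ccnd1 and Cdkn1a and overlap for Cdk1, Ccnb1, Ccna2 and Pcna.

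Cdkn1a encodes p21, an inhibitor of cyclin-dependent kinases that also binds PCNA and is a classic target of p53. Its level was 50.4, 51.8 and 49.5 FPKM in control libraries 1, 2 and 3 and 81.0, 73.1 and 80.0 FPKM in IL−1β libraries 1, 2 and 3. All IL−1β libraries lay above every control library, and the gap between the groups was wider than the range within either group. The group means were 50.6 ± 1.16 and 78.0 ± 4.30 FPKM (SD, n = 3 each), a rise of 48.0% in the scaled values (log2 fold change 0.57, standard error 0.06, 95% confidence interval 0.44 to 0.69, adjusted p = 0.00018 from limma). Of the 8 genes it had the smallest adjusted p. Its log2 fold change was larger in size than that of 79.9% of the tested genes.

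Ccnd1 encodes cyclin D1, the partner of the G1 kinases CDK4 and CDK6, which growth signals induce. It stood at 27.9, 28.1 and 27.5 FPKM in the control libraries and at 24.4, 21.7 and 22.1 FPKM in the IL−1β libraries. All IL−1β libraries were lower than all control libraries, and IL−1β library 1 was the closest to the controls. The means were 27.9 ± 0.298 and 22.7 ± 1.44 FPKM (SD, n = 3 each), and the scaled values fell by 21.6% (log2 fold change −0.35, standard error 0.06, 95% confidence interval −0.50 to −0.21, adjusted p = 0.0036 from limma). It was the only one of the 8 genes that fell past the test.

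The ratio of Cdkn1a to Ccnd1 within a library does not depend on how libraries are scaled to each other. It was 1.81, 1.84 and 1.80 in the control libraries and 3.32, 3.37 and 3.62 with IL−1β, so the inhibitor transcript gained on the D cyclin transcript in each IL−1β library. The means of the ratio were 1.82 ± 0.023 and 3.44 ± 0.162 (SD, n = 3 each). This ratio and those to Pcna below were chosen after the values were seen and carry no test.

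Mki67 encodes Ki-67, a protein that coats mitotic chromosomes and is the usual histological mark of cycling cells. Its level was 4.40, 5.49 and 7.43 FPKM in the control libraries and 8.09, 9.44 and 9.16 FPKM in the IL−1β libraries. The groups did not overlap, but control library 3 lay close under IL−1β library 1. The means were 5.77 ± 1.54 and 8.90 ± 0.715 FPKM (SD, n = 3 each), and the scaled values rose by 50.3% (log2 fold change 0.59, standard error 0.17, 95% confidence interval 0.19 to 0.99, adjusted p = 0.03 from limma). The SD in the control group was 26.6% of the mean, the widest relative spread of the 8 genes in either group.

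The call for Mki67 was not kept in every fit without 1 library, and each such fit has fewer libraries. Its adjusted p in limma was 0.064 without control library 1, 0.083 without control library 2, 0.091 without IL−1β library 2 and 0.081 without IL−1β library 3, with the log2 fold change between 0.42 and 0.78 when any single library was dropped (6 fits). The direction was upward in all 6. Without control library 2, IL−1β library 2 or IL−1β library 3, the log2 fold change was 0.564, 0.548 and 0.573, against 0.588 with all libraries. The standard error in these fits was 0.202, 0.202 and 0.205, against 0.17. The estimate moved more without control library 1 (0.418) and without control library 3 (0.775, adjusted p = 0.003 from limma).

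Top2a encodes topoisomerase IIα, which untangles replicated DNA before and during mitosis and is made mostly in S, G2 and M phase. It stood at 13.6, 15.4 and 16.3 FPKM in the control libraries and at 19.9, 23.4 and 21.5 FPKM in the IL−1β libraries. The lowest IL−1β library was above the highest control library. The means were 15.1 ± 1.42 and 21.6 ± 1.74 FPKM (SD, n = 3 each), and the scaled values rose by 37.5% (log2 fold change 0.46, standard error 0.08, 95% confidence interval 0.27 to 0.65, adjusted p = 0.0035 from limma). Unlike for Mki67, the adjusted p of Top2a stayed under 0.05 in each of the 6 fits without 1 library, with 0.014 as the highest.

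**Figure D2:**
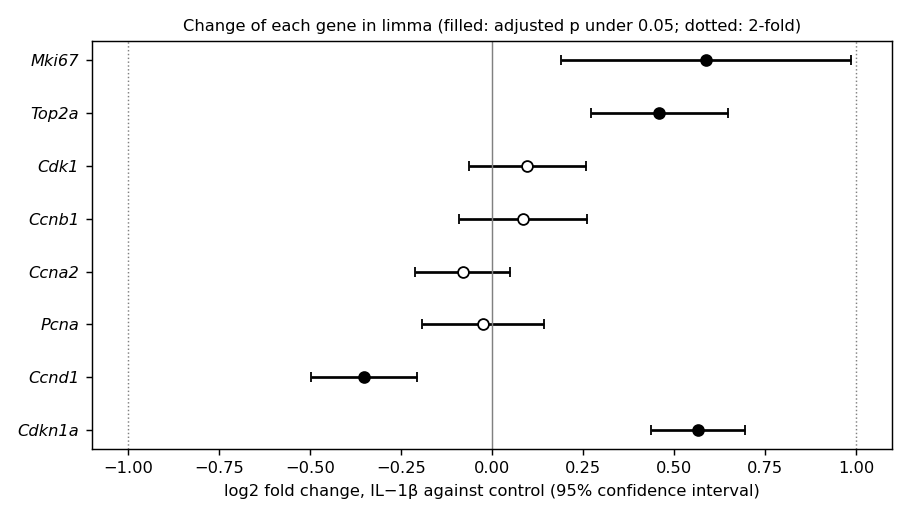
Log2 fold change of each gene between the IL−1β and control groups (horizontal axis) with its 95% confidence interval from limma. Filled points have an adjusted p under 0.05, dotted lines mark a 2-fold change, and no interval reaches them.

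Cdk1 and Ccnb1 encode the kinase and the cyclin that together drive entry into mitosis. Cdk1 was at 39.1 FPKM in each control library and at 38.5, 46.4 and 46.2 FPKM in IL−1β libraries 1, 2 and 3. IL−1β library 1 lay below the controls and the other two lay above them, so the groups overlapped. The log2 fold change was 0.10 (95% confidence interval −0.06 to 0.26, adjusted p = 0.31 from limma), which leaves room for a rise of up to 1.20-fold in the scaled values. Without IL−1β library 1 it was 0.18, with an adjusted p of 0.014 in limma.

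The deposited FPKM of Cdk1 and Pcna were nearly equal in the control libraries, with an SD of 0.0739% and 0.205% of the mean. In the scaled values that limma tested, the SD was 1.07% for Cdk1 and 1.00% for Pcna, still below the counting error of a single library (2.15% and 2.07%), which holds for 2 of the 8 genes. The standard errors from limma were larger than those from counting alone for all 8 genes, at 0.069 against 0.025 on the log2 scale for Cdk1 and 0.071 against 0.024 for Pcna. In the fit of Cdk1 without IL−1β library 1 the margin was narrower, at 0.038 against 0.027.

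Ccnb1 was at 18.0, 21.4 and 19.2 FPKM in the control libraries and at 19.8, 22.4 and 22.5 FPKM in the IL−1β libraries. The ranges overlapped. The log2 fold change was 0.09 (95% confidence interval −0.09 to 0.26, adjusted p = 0.42 from limma), and it was 0.03 without control library 1 and 0.15 without control library 2.

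Ccna2 encodes cyclin A2, needed in S phase and again before mitosis. It was at 24.2, 24.8 and 23.5 FPKM in the control libraries and at 22.9, 25.5 and 23.2 FPKM in the IL−1β libraries, with overlapping ranges. The log2 fold change was −0.08 (95% confidence interval −0.21 to 0.05, adjusted p = 0.30 from limma). Its size was not stable, at −0.125 without IL−1β library 2, −0.053 without IL−1β library 3 and −0.023 with the deposited FPKM.

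Pcna encodes the sliding clamp that holds DNA polymerase on the template during replication. It was at 51.7, 51.6 and 51.8 FPKM in the control libraries and at 46.9, 58.3 and 54.2 FPKM with IL−1β, whose values lay on both sides of the control values. The log2 fold change was −0.03 (95% confidence interval −0.19 to 0.14, adjusted p = 0.81 from limma), and its sign was not settled. It was 0.032 with the FPKM values as deposited, 0.051 without IL−1β library 1 and −0.092 without IL−1β library 2. For these 4 genes a change larger than 1.20-fold in either direction lies outside the intervals. A p that misses the threshold does not show that the levels were equal.

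Pcna then served as a reference within each library, since it is one of the 8 genes with no called change. Its level was not shown to be constant. In the IL−1β group its SD was 10.9% of the mean, the widest of the 8 genes in that group, and this spread enters each ratio. The ratio of Top2a to Pcna was 0.262, 0.298 and 0.315 in the control libraries and 0.425, 0.402 and 0.397 in the IL−1β libraries. That of Mki67 to Pcna was 0.0851, 0.106 and 0.143 against 0.173, 0.162 and 0.169. Both ratios were higher in every IL−1β library than in any control library.

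The ratio of Cdk1 to Pcna ranged from 0.755 to 0.757 in the controls and from 0.796 to 0.853 with IL−1β. The counting error of this ratio was between 2.64% and 3.15% per library, and the SD of the control ratios was 0.15%. The nearest values of the groups were 5.17% apart, and no difference was read from this gap. The ratios of Ccnb1 and of Ccna2 to Pcna overlapped between the groups. That of Ccnd1 to Pcna was between 0.531 and 0.545 in the controls. It was 0.520, 0.373 and 0.408 in IL−1β libraries 1, 2 and 3, and the first of these was 2.09% under the lowest control, within the counting error of the ratio (2.48% to 2.79%). The ratio of Ccnd1 to Pcna was therefore not read as separating the groups. In IL−1β library 1, Pcna was at its lowest (46.9 FPKM). Ccnd1 itself stood at 24.4 FPKM in that library, under its lowest control value of 27.5 FPKM.

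**Figure D3:**
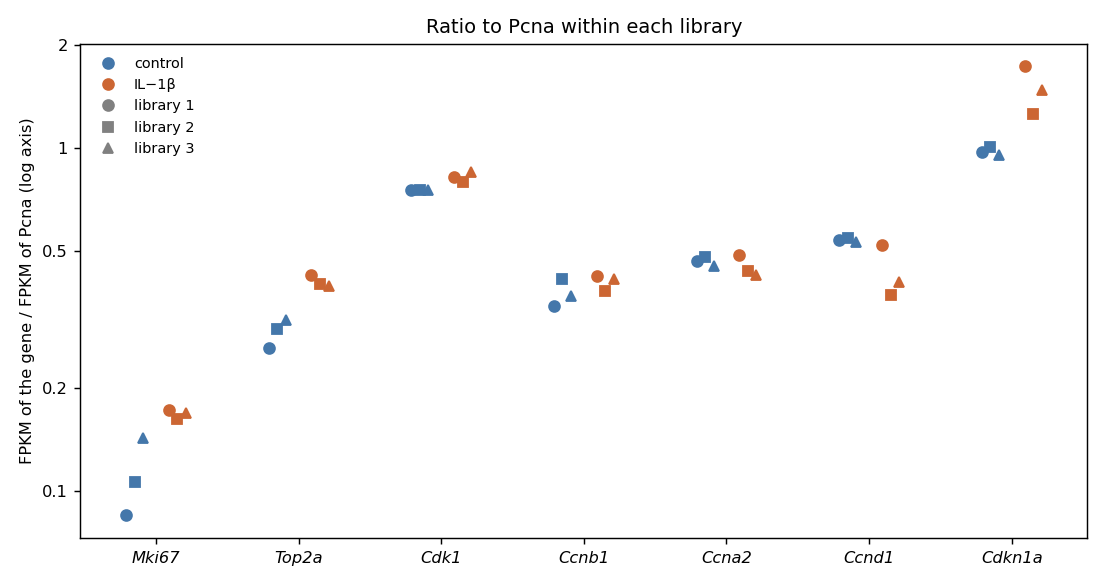
Ratio of the FPKM of each gene to the FPKM of Pcna in the same library (vertical log axis) for 3 control and 3 IL−1β libraries, with the library number shown by the symbol. IL−1β libraries lie above the controls for Mki67, Top2a and Cdkn1a and overlap with them for Ccnb1 and Ccna2, while the gaps for Cdk1 and Ccnd1, whose control points lie closer together than counting error gives, are not read as differences.

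In the control group, the order of the mean levels was Pcna (51.7 FPKM), Cdkn1a (50.6), Cdk1 (39.1), Ccnd1 (27.9), Ccna2 (24.2), Ccnb1 (19.5), Top2a (15.1) and Mki67 (5.77), and of neighbours in this order only Pcna and Cdkn1a had overlapping ranges. In the IL−1β group Cdkn1a came first (78.0 FPKM), followed by Pcna (53.1) and Cdk1 (43.7). Ccna2 (23.8), Ccnd1 (22.7), Top2a (21.6) and Ccnb1 (21.6) then formed a run whose neighbours overlapped, and Mki67 (8.90) was again the lowest. Among all tested genes ranked by mean level, Cdkn1a was at percentile 88.7 without and 92.0 with IL−1β, Ccnd1 at 80.0 and 74.7, Top2a at 66.5 and 73.7, and Mki67 at 41.1 and 50.9.

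The IL−1β libraries also differed among themselves. In the scaled values, IL−1β library 1 was the lowest of its group for 5 of the 8 genes (Mki67, Top2a, Cdk1, Ccnb1 and Pcna) and the highest for Ccnd1 and Cdkn1a. IL−1β library 2 was the highest for the other 6 genes and the lowest for Ccnd1 and Cdkn1a. In the control group, library 3 was the lowest for 5 of the 8 genes and the highest for Mki67 and Top2a, and library 1 was the lowest for the other 3 (Mki67, Top2a and Ccnb1) and the highest for 3. For Cdk1 (39.44 against 39.56) and Pcna (52.28 against 52.3), control library 3 lay under control library 2 by less than counting error. In the deposited FPKM it was the highest control for both genes, so these ranks are not read as differences. Without both libraries numbered 1, a fit added after seeing the data, the log2 fold change was 0.48 for Mki67 (adjusted p = 0.059 from limma), 0.18 for Cdk1 (adjusted p = 0.024) and 0.06 for Pcna (adjusted p = 0.44), while Top2a, Ccnd1 and Cdkn1a remained past an adjusted p of 0.05.

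Groups that do not overlap were found for 4 of the 8 genes, beside 51.4% of all tested genes. With 3 libraries a group, no exact permutation p can fall below 0.10. The calls rest on limma's model, which combines each gene's own spread with a spread pooled over all tested genes. In bulk RNA, a larger share of cells in a given phase and more transcript per cell cannot be told apart.

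**Figure D4:**
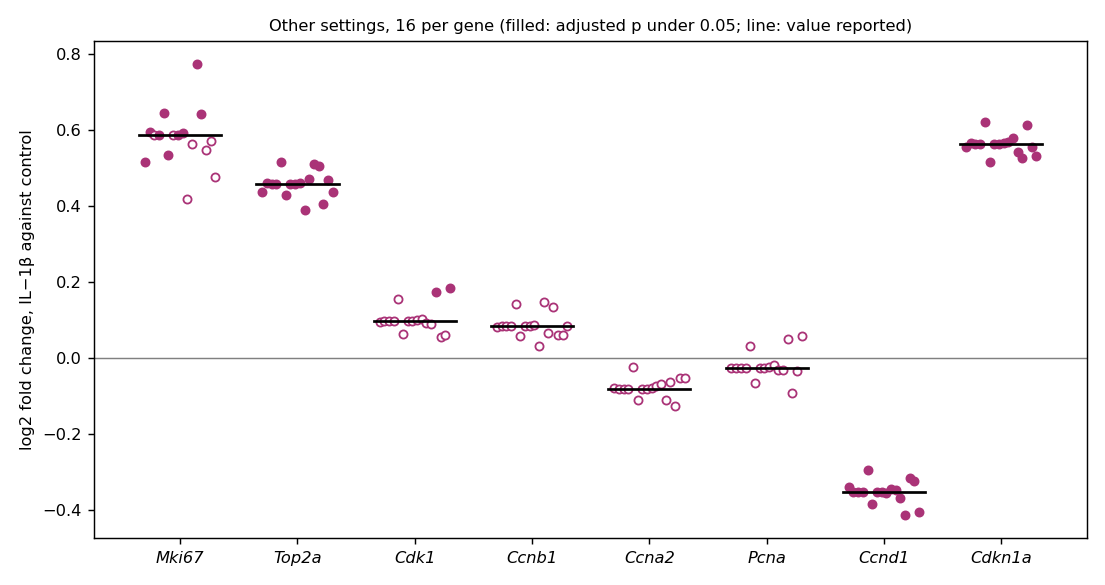
Log2 fold change of each gene (vertical axis) under 16 other settings, namely 15 of those planned and 1 fit of libraries 2 and 3 added after seeing the data, with the reported value as a line and without TREAT, whose null is a 2-fold change and which calls none of the 8. Filled points have an adjusted p under 0.05, which holds for 16 of 16 settings in Top2a, Ccnd1 and Cdkn1a, 9 of 16 in Mki67, 2 of 16 in Cdk1 and 0 of 16 in Ccnb1, Ccna2 and Pcna.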

How the data were processed

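Polyadenylated RNA of rat tenocytes (6 libraries, 3 control and 3 IL−1β) was sequenced as paired-end libraries on DNBSEQ-T7. The authors deposited a table of FPKM with 19133 rat Ensembl genes and a column for each library. The submitters' processing notes name HISAT2 and featureCounts; versions, genome build, annotation and strand setting are not given in the sources used here. FPKM is already divided by gene length and depth. The study's own test, DESeq2, was not run here, and limma-voom on recovered reads stands as the alternative based on counts. The 8 genes were taken by identifier, with symbols supplied with the list and not checked against an annotation. The members and lists were chosen with earlier results of these data known. Planned lists of other cell cycle genes and of cell type markers were not tested, because their symbols were not paired with identifiers. All 8 genes are named by rule. In the RefSeq table (GRCr8) none overlaps another gene, but pseudogenes are listed for Mki67 (1), Cdk1 (1) and Pcna (3), whose reads could be shared.

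Whole reads were recovered from the FPKM steps for all 19133 genes, within 0.02 read (Python 3.11.15, pandas 2.3.3 and numpy 2.4.6). The recovery takes the shortest gene length that gives whole reads. For a gene with few reads, a match alone does not show that the number is right. Fits were made in R 4.3.3 with limma 3.58.1 (median-of-ratios scaling, pseudocount 0.1, at least 0.5 FPKM in at least 3 libraries, intensity trend, Benjamini-Hochberg adjustment). Both scripts were tested on simulated data, and the test of the recovery scored no genes with few reads. Alternatives were pseudocounts, filters, scalings, TREAT, no trend, a replicate block, limma-voom on the recovered reads and leaving out each library. Figures were drawn with matplotlib 3.10.9.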

Additional observations from a re-analysis of the deposited data

How the results depend on the processing

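Ccnb1 (log2 fold change 0.033 to 0.149) and Ccna2 (−0.125 to −0.023) kept their direction and missed an adjusted p of 0.05 in limma under all 16 alternatives tested against no change, but their size was not stable. Ccnb1 was lowest without control library 1 and highest without control library 2. Ccna2 was −0.125 without IL−1β library 2, −0.053 without IL−1β library 3 and −0.023 with the deposited FPKM. Under the same alternatives, Top2a (0.39 to 0.52), Ccnd1 (−0.41 to −0.29) and Cdkn1a (0.52 to 0.62) kept their direction and their call. TREAT, whose null is a 2-fold change, called 0 of the 8 genes, not 4, at unaltered log2 fold changes (Mki67 0.59, Top2a 0.46, Ccnd1 −0.35, Cdkn1a 0.57), as its design implies. Mki67 missed the threshold in limma without a filter on low values (log2 fold change 0.59, adjusted p = 0.054) and without a trend (0.59, adjusted p = 0.052). Without the filter, more genes enter the adjustment, but the standard error was also larger, at 0.176 against 0.17. The cause was not tested in either fit. Mki67 also missed the threshold with libraries 2 and 3 only (0.48), a fit chosen after seeing the data. Over the fits without 1 library, the log2 fold change ranged from 0.42 to 0.78 for Mki67, 0.056 to 0.175 for Cdk1 (the highest without IL−1β library 1, where it passed) and −0.092 to 0.051 for Pcna. With libraries 2 and 3 only, Cdk1 passed (0.18). Pcna turned positive with the deposited FPKM (0.032), without IL−1β library 1 (0.051) and with libraries 2 and 3 only (0.059), at an adjusted p of 0.33 to 0.89 over the same alternatives and this fit. The cause was not tested.

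Scaling moved the median log2 fold change over the tested genes from 0.001 (size factors) to 0.06 (deposited FPKM) and −0.05 (quantile normalization), and changes of this size have no settled direction. Around their group means, control and IL−1β libraries of the same number correlated at 0.094, 0.021 and 0.034 across genes, so the numbers were not taken as pairs. With the replicate block, 4 of the 8 genes had an adjusted p under 0.05 in limma, 3 higher and 1 lower, and the block changed no call. Each gene had at least 1116 reads in each library, and counting error was at most 2.99% of a gene's level in a library.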
